A study of Mus musculus with 8 samples.

Results

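S100 proteins are small calcium-binding proteins, and RAGE, encoded by *Ager*, is a cell surface receptor to which several of them bind. Messenger RNA of 9 S100 genes and of *Ager* was compared between primary murine articular chondrocytes treated with the proinflammatory cytokine IL-1β and cells treated with vehicle. The 10 genes, *S100a1*, *S100a4*, *S100a6*, *S100a8*, *S100a9*, *S100a10*, *S100a11*, *S100a13*, *S100b* and *Ager*, were picked by name from 54658 gene symbols, with earlier results of these data known. Of these, 6 were expressed highly enough to be tested, and all 6 passed the test of a difference between the groups, with 5 lower and 1 higher after IL-1β, where 40.2% of all genes tested passed (19.8% lower and 20.4% higher). None of the 6 changed by more than 2-fold. *S100a8* and *S100a9*, the genes of calprotectin, were at 0 to 2 reads in every sample of either group.

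Both groups held primary articular chondrocytes isolated from femoral heads of wild-type mice aged 3 weeks, 4 samples with vehicle and 4 with IL-1β at 1 ng/mL for 24 h, and no allele was altered in either. The sources used here do not say whether the 4 samples of a group came from separate animals or cultures, so p-values measure only the spread between these samples, which may be technical. Total counts were 10992355 to 17104351 with IL-1β and 13970959 to 17456063 with vehicle. Levels are given as CPM, the count of a gene scaled to a common library size, on edgeR's TMM scale, and levels of different genes are compared per kilobase of exon. The 9 chondrocyte markers examined, among them *Col2a1* and *Acan*, were all present, and all were lower after IL-1β (summed level 4189 to 4600 CPM against 16120 to 16740 CPM with vehicle). Markers of endothelial, erythroid and keratinocyte cells were low and overlapped between the groups, with summed levels of at most 0.785, 1.88 and 5.50 CPM. In such bulk RNA, fewer cells of a type and less RNA per cell cannot be told apart.

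S100 proteins carry paired EF hands, helix-loop-helix motifs that bind calcium, and most work as dimers that expose a binding surface for partner proteins when calcium rises. S100A10 is the exception, since its EF hands do not bind calcium and it stays in the active shape, in complex with annexin A2. Released from cells, several family members act as alarmins, molecules that signal damage through RAGE and Toll-like receptor 4. S100A8 and S100A9 form calprotectin, which is abundant in neutrophils and is studied as a marker of joint inflammation. In cartilage, S100A1 and S100B are known as targets of the chondrogenic SOX transcription factors, and S100B has long served as a stain for chondrocytes.

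Most mouse S100 genes lie in a cluster on chromosome 3. *S100a1* (ENSMUSG00000044080.9, 90511034 to 90514392, minus strand) and *S100a13* (90514435 to 90524581, plus strand) stand head to head there, with 42 bases between their outermost annotated starts in GRCm38. This interval is shown because the neighbours it separates moved in opposite directions. It is read on the plus strand from chr3:90514393-90514434, and capitals mark a match to the letters of an NF-κB site (GGG, any 5 bases, then CC).
S100a1-S100a13 interval: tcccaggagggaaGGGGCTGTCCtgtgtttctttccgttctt
The upstream side of *S100a9* is shown for contrast, since the gene was almost silent in both groups while genes of C/EBP factors rose. It covers chr3:90695722-90695971 on the minus strand, the 250 bases before the start. Capitals mark matches to the letters TTNNGNAA of a C/EBP site, which appear when the opposite (plus) strand is read.
S100a9 upstream: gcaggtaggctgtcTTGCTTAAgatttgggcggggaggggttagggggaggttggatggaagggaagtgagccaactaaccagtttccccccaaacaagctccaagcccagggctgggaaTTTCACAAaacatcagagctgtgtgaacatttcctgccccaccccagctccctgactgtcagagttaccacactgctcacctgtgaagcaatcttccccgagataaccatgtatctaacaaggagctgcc
Both sequences are from RefSeq (GRCm38.p6), whose promoter windows cover 250 bases before to 50 after a start and included 9 of the 10 genes, all but *S100a10*. Motifs were searched on both strands. The NF-κB letters were found in the windows of *S100a1*, *S100a4*, *S100a6*, *S100a11*, *S100a13* and *Ager*, 6 of the 9, and in 50.8% of all 32851 windows. The windows of *S100a1* and *S100a13* overlap and share this stretch. TTNNGNAA was found in the windows of *S100a8* and *S100a9* (40.7% of all windows), and the AP-1 letters TGANTCA only in that of *S100a11* among the 9 (2 matches, 7.81% of all windows). The SOX letters ACAAT matched in the *S100a4* window only (31.0% of all windows), and TATAAA matched in those of *S100a4*, *S100a8* and *S100a9* (13.6% of all windows). The TATAAA match of *S100a9* is not in the 250 bases printed above but in the part of its window after the start. A match describes letters and does not show binding.

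*S100a11* was the most abundant family member, at 773.3 ± 42.3 CPM per kilobase with vehicle (SD, n = 4), followed by *S100a6* at 442.0 ± 7.41. *S100a1* at 84.3 ± 4.52 and *S100a10* at 82.8 ± 2.17 CPM per kilobase came next and did not differ beyond their spread with vehicle. *S100a13* had 31.1 ± 2.54 CPM per kilobase and *S100b* 6.34 ± 0.763. *S100a4* and *Ager* were below 1 CPM per kilobase on average in both groups, and *S100a8* and *S100a9* were lower still. Thus the RNA of this family in chondrocytes came mainly from 2 genes, with *S100a11* and *S100a6* making up 53.9% ± 1.73 and 30.9% ± 1.04 of the summed S100 level per length with vehicle. The order of the 6 genes was the same with IL-1β, where *S100a1* at 64.4 ± 3.01 and *S100a10* at 54.3 ± 2.01 CPM per kilobase no longer overlapped.

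**Figure D1:**
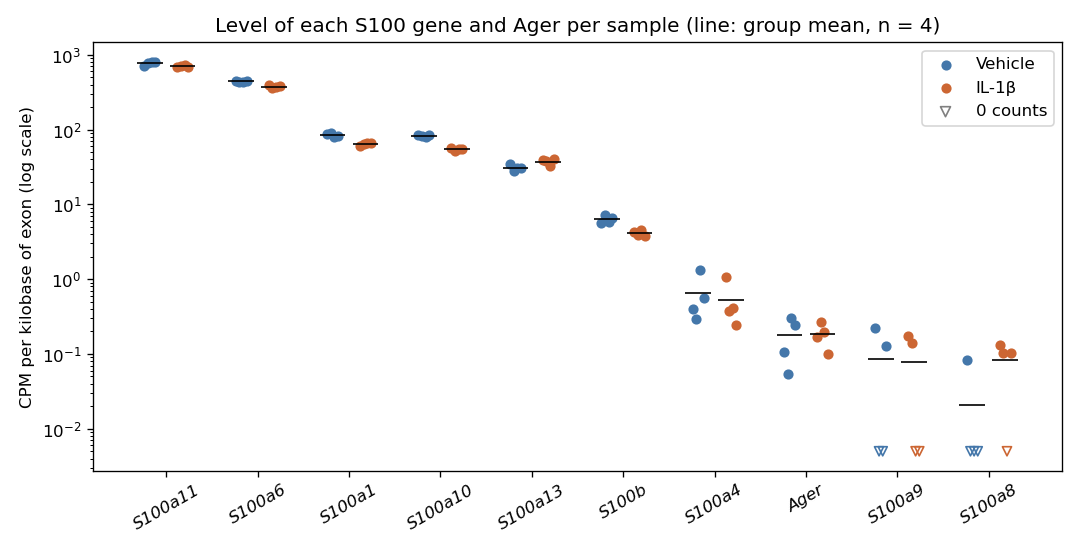
Level of each gene in each sample, in CPM per kilobase of exon on a log axis, for vehicle (blue) and IL-1β (orange), with lines at the group means (n = 4) and open triangles for samples with 0 counts. *S100a11* and *S100a6* lie highest in both groups, and *S100a8* and *S100a9* hold samples at 0.

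Of the 6 genes tested, *S100a1*, *S100a6*, *S100a10*, *S100a11* and *S100b* were lower after IL-1β at an adjusted p-value under 0.05 from edgeR's quasi-likelihood test, as were 19.8% of all 14404 genes tested. *S100a13* was higher, as were 20.4% of all genes tested, and 40.2% changed in either direction. None of the 6 was a differentially expressed gene (DEG, log2 fold change above 1 or below -1 as well), against 5.21% of all genes tested. The samples of the groups did not overlap for *S100a1*, *S100a6*, *S100a10* and *S100b*, 4 of the 6 genes, and for 36.8% of all genes tested. The median log2 fold change of the 6 genes was -0.31, beside -0.0012 for all genes tested.

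**Figure D2:**
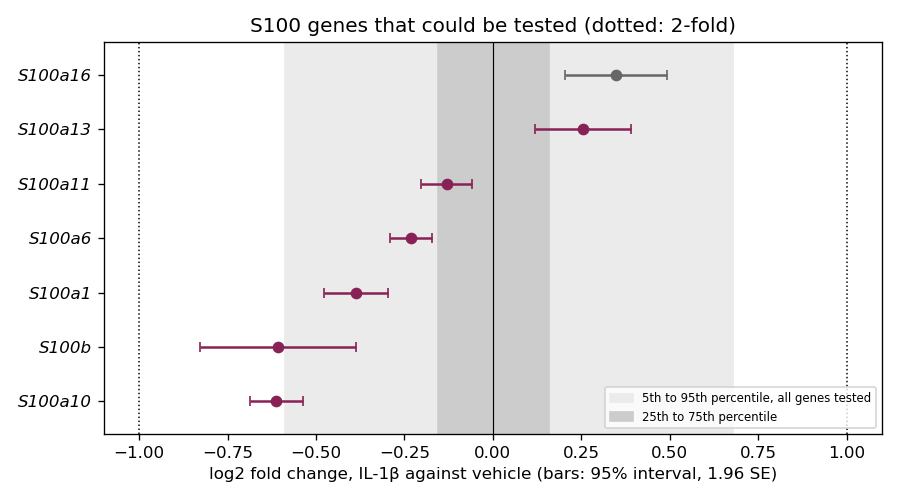
Log2 fold change, IL-1β against vehicle, of the S100 genes that could be tested, with bars for the 95% interval (n = 4 per group); *S100a16* in grey is outside the chosen 10. Shaded bands span the 5th to 95th (-0.59 to 0.68) and 25th to 75th percentile (-0.16 to 0.16) of all genes tested, and dotted lines mark 2-fold. *S100a10* and *S100b* lie beyond the 5th percentile.

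*S100a10* encodes the light chain that joins annexin A2 at the plasma membrane, where the complex binds plasminogen and carries ion channels to the surface. It had 68.3, 62.5, 66.4 and 65.9 CPM in the 4 IL-1β samples and 103.0, 99.5, 97.1 and 101.9 CPM in the 4 vehicle samples. Every IL-1β sample lay below every vehicle sample, by a gap far wider than the spread within either group. The mean fell by 34.6%, from 100.4 ± 2.63 to 65.8 ± 2.44 CPM (SD, n = 4; log2 fold change -0.61 ± 0.0381 SE, edgeR adjusted p = 8.13e-14). *Anxa2*, the gene of its partner, averaged 653.8 ± 18.2 CPM after IL-1β, against 629.8 ± 13.8 CPM with vehicle, and did not pass the test (log2 fold change 0.05, standard error 0.0304). The ratio of *Anxa2* to *S100a10* reads was thus 6.14 to 6.34 in the vehicle samples and 9.56 to 10.3 in the IL-1β samples (p = 0.0286 by a two-sided exact permutation test, the lowest p possible with 4 against 4). All ratios of reads were chosen after the levels were seen. Since *S100a10* alone already separated the groups, its ratios with *Anxa2*, *S100a6* and *S100a11* are not separate support for its fall.

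*S100b* encodes an S100 protein known from glia, melanocytes and chondrocytes. It lies outside the cluster, on chromosome 10 from 76253853 to 76261159. Its level was 6.31, 5.84, 6.83 and 5.67 CPM with IL-1β, against 8.42, 10.8, 8.56 and 9.86 CPM with vehicle, which rest on 70 to 115 and 120 to 187 reads per sample. Again the highest IL-1β sample was below the lowest vehicle sample, although the vehicle samples were more spread. The mean fell by 34.4%, from 9.41 ± 1.13 to 6.16 ± 0.519 CPM (log2 fold change -0.61 ± 0.113 SE, edgeR adjusted p = 6.09e-05). The percent change was close to that of *S100a10*, with a standard error nearly 3 times as large. Schwann and glial cells also express *S100b*. Of the markers of these cells, *Sox10* was at 6 reads or fewer per sample, and *Mbp* was lower after IL-1β (0.887 ± 0.166 against 1.52 ± 0.226 CPM). The part of these cells in the result was not tested.

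*S100a1* encodes a calcium sensor best known from heart and skeletal muscle. Its level was 41.6, 45.2, 46.3 and 45.7 CPM with IL-1β, against 59.8, 62.3, 55.3 and 56.7 CPM with vehicle. The groups did not overlap, and the mean fell by 23.5% with IL-1β (44.7 ± 2.09 against 58.5 ± 3.14 CPM, log2 fold change -0.39 ± 0.0459 SE, edgeR adjusted p = 5.49e-08). *S100a1* and *S100b* fell in the same samples as the chondrocyte markers, all 9 of which were DEGs with a median log2 fold change of -1.69, and the part of that shift in these results was not tested. Within samples, *S100b* had 0.138 ± 0.0134 reads per read of *S100a1* with IL-1β and 0.161 ± 0.0159 with vehicle, a difference that did not exceed the spread between samples (p = 0.114, two-sided exact permutation test).

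*S100a6* encodes calcyclin, a protein of proliferating cells and fibroblasts that binds annexins and the calcyclin-binding protein *Cacybp*. The IL-1β samples had 533.8, 495.9, 507.5 and 521.9 CPM, and the vehicle samples 609.7, 599.5, 592.6 and 615.2 CPM. The groups were apart, but the mean fell by 14.8% only (log2 fold change -0.23 ± 0.0308 SE, edgeR adjusted p = 4.17e-07). The summed level of 6 fibroblast or synovial markers was 2116 to 2239 CPM with IL-1β and 997.6 to 1049 CPM in vehicle samples, a difference made mostly by *Prg4*, the gene of lubricin, which superficial chondrocytes also express (2011 ± 47.0 against 856.2 ± 21.8 CPM). Of the other 3 tested markers, *Pdgfra* was higher (41.2 ± 0.807 against 27.6 ± 0.847 CPM), *Col3a1* was lower (39.8 ± 1.54 against 50.3 ± 2.449 CPM) and *Col1a1* did not pass the test. The part of such cells in this result was not tested. *Cacybp* did not pass the test, at 39.9 ± 1.43 CPM after IL-1β and 40.8 ± 1.73 CPM in vehicle samples. *S100a10* fell further than *S100a6*, with 0.128 ± 0.00225 *S100a10* reads per *S100a6* read with IL-1β and 0.166 ± 0.00212 with vehicle (p = 0.0286, two-sided exact permutation test).

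*S100a11* encodes calgizzarin, a partner of annexin A1 that is also known as an extracellular ligand of RAGE. Its listed pseudogene *S100a11-ps*, to which reads could be split, averaged 0.0403 CPM after IL-1β and 0.0289 CPM in the vehicle samples. The IL-1β samples had 352.6, 360.7, 378.8 and 351.0 CPM, and the vehicle samples 363.3, 401.8, 411.3 and 404.2 CPM. Here the groups overlapped, since vehicle replicate 1 lay below IL-1β replicate 3. The mean fell by 8.65%, the smallest change among the 6 genes (log2 fold change -0.13 ± 0.0369 SE, edgeR adjusted p = 0.00529). Tested alone by an exact permutation test on the mean CPM (two-sided), it gave p = 0.0571. The ratio of *S100a11* to *S100a6* reads was 0.702 ± 0.0416 with IL-1β and 0.654 ± 0.0419 with vehicle (p = 0.171, two-sided exact permutation test). *S100a10*, the next S100 gene on chromosome 3, fell further, with 0.182 ± 0.00985 *S100a10* reads per *S100a11* read against 0.255 ± 0.0203 (p = 0.0286, two-sided exact permutation test).

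*S100a13* was the exception in direction. Its product takes part in the release of FGF1 and interleukin-1α, proteins that leave the cell without a signal peptide. The IL-1β samples had 27.8, 27.0, 23.3 and 28.5 CPM, and the vehicle samples 24.6, 20.2, 22.04 and 21.95 CPM. IL-1β replicate 3 lay below vehicle replicate 1, so that the groups overlapped by this pair of samples. The mean rose by 19.3%, from 22.2 ± 1.82 to 26.7 ± 2.32 CPM (log2 fold change 0.25 ± 0.0691 SE, edgeR adjusted p = 0.00384), while the exact permutation test on the mean CPM alone gave p = 0.0571 (two-sided). The genes of its cargo were too low to be tested, with *Fgf1* at 0.609 ± 0.0888 CPM with IL-1β, against 0.839 ± 0.211 CPM with vehicle, and *Il1a* at 0.300 ± 0.161 and 0.452 ± 0.0846 CPM.

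The head-to-head genes *S100a13* and *S100a1*, whose shared interval is printed above, were also compared within samples. The ratio of their reads was 0.667, 0.598, 0.503 and 0.624 in the IL-1β samples and 0.412, 0.325, 0.399 and 0.387 in the vehicle samples. The groups did not overlap, with means of 0.598 ± 0.0693 and 0.381 ± 0.0387 (p = 0.0286, two-sided exact permutation test). The level of *S100a1* alone also did not overlap between the groups, while that of *S100a13* did, so the ratio is not separate support for a rise of *S100a13*. Whether the counting used strand is not given in the sources used here, but the exons of these genes do not overlap in the annotation.

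**Figure D3:**
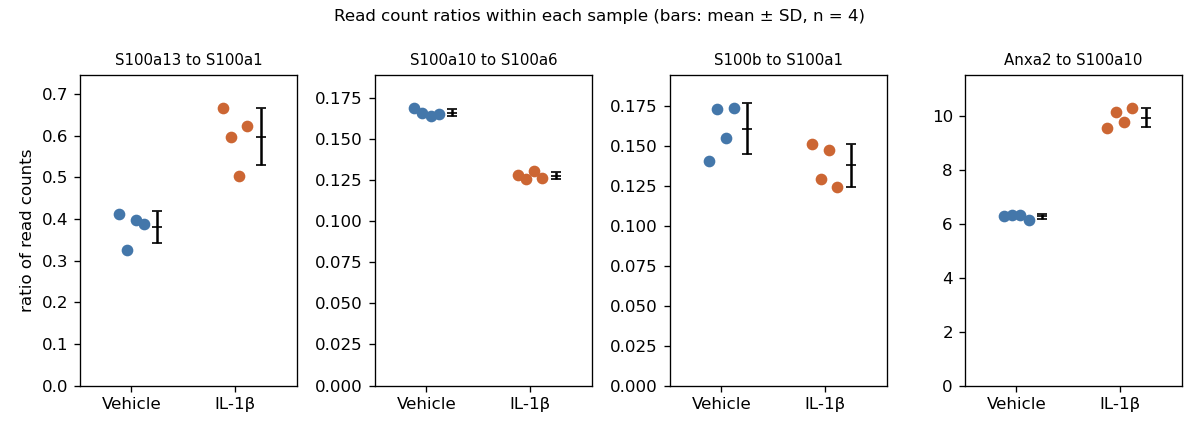
Ratios of read counts within each sample for 4 pairs of genes, with vehicle in blue, IL-1β in orange and bars for the mean ± SD (n = 4); each axis starts at 0. *S100a13* to *S100a1* and *Anxa2* to *S100a10* are higher with IL-1β, *S100a10* to *S100a6* is lower, and *S100b* to *S100a1* overlaps.

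The remaining 4 genes did not pass the filter of a CPM above 1 in at least 4 samples. *S100a8* had 1, 1, 0 and 1 reads with IL-1β and 1, 0, 0 and 0 reads with vehicle. *S100a9* had 1, 1, 0 and 0 reads with IL-1β and 2, 0, 0 and 1 reads with vehicle. Calprotectin RNA thus stayed under 3 reads in all 8 samples, the smallest abundance taken as shown here, which corresponds to 0.173 to 0.270 CPM and covers counting error only. A difference between the groups was not detectable at this depth, and no fold is given. Markers of neutrophils, the main source of these transcripts in blood, were also near 0. *Ly6g*, *Elane*, *Mpo*, *Ltf* and *Retnlg* were at 0 in all samples and 8 of 10 neutrophil markers never exceeded 3 reads. *Camp*, the gene of an antimicrobial peptide, was the marker that rose (1.26 ± 0.194 against 0.143 ± 0.142 CPM). The summed level of the 10 markers was 1.37 to 1.78 CPM with IL-1β, against 0.116 to 0.750 CPM with vehicle.

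*Ager*, on chromosome 17 from 34597862 to 34600936, had 4, 8, 7 and 3 reads with IL-1β and 4, 2, 9 and 8 reads with vehicle. These correspond to 0.392 ± 0.150 and 0.379 ± 0.246 CPM and overlap throughout (p = 0.914, two-sided exact permutation test). Without the filter on low counts, its log2 fold change was 0.11 with a 95% interval from -0.85 to 1.06, so that changes in either direction larger than that of any of the 6 tested genes lie within the interval. *S100a4*, the gene of a metastasis-associated protein of fibroblasts and leukocytes, had 7, 3, 4 and 2 reads with IL-1β and 4, 3, 11 and 5 reads with vehicle (p = 0.571, two-sided exact permutation test on the mean CPM). The count of *S100a4* is uncertain, because 302 of its 584 exon bases (51.7%) are shared with the gene *Gm42674* on the same strand, which is listed at 0 counts in every sample.

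The table holds 8 further S100 genes, of which *S100a16* alone could be tested. *S100a16*, whose product is a widely expressed EF-hand protein, had 19.7, 18.9, 22.3 and 22.8 CPM in the IL-1β samples, and 15.9, 17.2, 17.5 and 15.6 CPM in the vehicle samples. It rose in all 4 IL-1β samples over all vehicle samples (log2 fold change 0.35 ± 0.0737 SE, edgeR adjusted p = 0.000334). *S100a2*, *S100a3*, *S100a5*, *S100a7a*, *S100a14*, *S100g* and *S100z* failed the filter, with *S100a5* at 0 reads in every sample. *S100a2* had 0, 1, 0 and 2 reads with IL-1β and 2, 6, 3 and 4 reads with vehicle.

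Along chromosome 3, genes that rose lay next to genes that fell. *S100a13* and *S100a16*, which rose, start 0.043 and 22.9 kb from the start of *S100a1*, which fell. *S100a6* (90612882 to 90624181), which fell, starts 98.5 kb from it. Between *S100a16* and *S100a6* lies *S100a4* (90603771 to 90606045), and beyond *S100a6* lie *S100a8* (90668978 to 90670035) and *S100a9* (90692632 to 90695721). *S100a11* (93520488 to 93526287) and *S100a10* (93555080 to 93564643) form a second group 3006 and 3041 kb away, and both fell. All positions are those of GRCm38. Of the nearest tested genes outside the family, *Snapin* was higher (log2 fold change 0.13, adjusted p = 0.0161 from edgeR), whereas *Ilf2*, *Chtop* and *Tchh* did not pass the test.

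**Figure D4:**
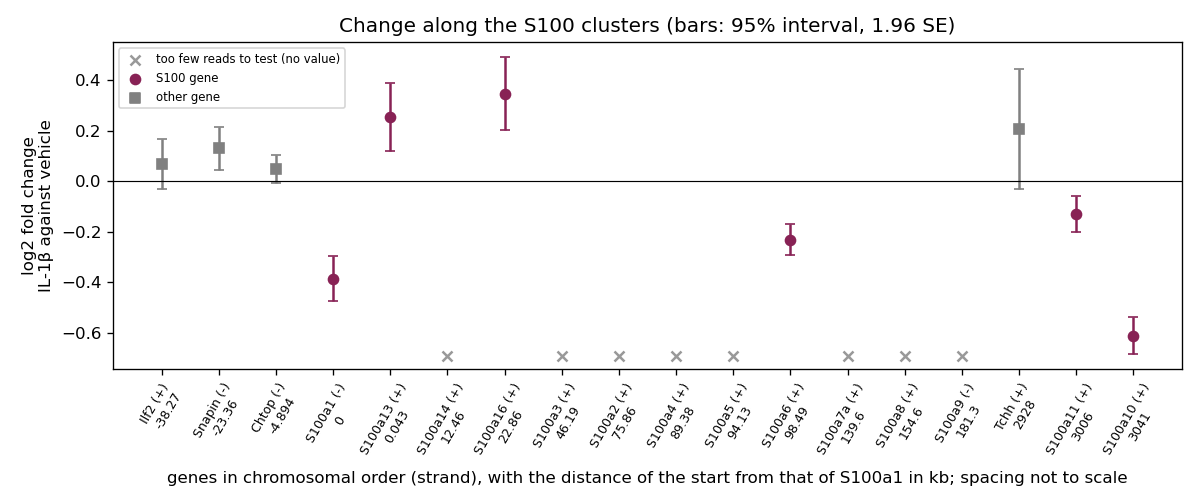
Log2 fold change, IL-1β against vehicle, of genes in their order along chromosome 3, with the distance of each start from that of *S100a1* in kb and bars for the 95% interval; spacing is not to scale, crosses mark genes with too few reads to test, and squares are genes outside the family. *S100a1* and *S100a13* are adjacent and lie on opposite sides of 0.

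The shares of the less abundant genes in the S100 RNA shifted between the groups. The summed level per length of the S100 genes was 1241 to 1286 CPM per kilobase with IL-1β and 1380 to 1456 with vehicle. The share of *S100a10* was 4.31% ± 0.143 with IL-1β and 5.79% ± 0.267 with vehicle, and that of *S100a1* was 5.12% ± 0.231 and 5.89% ± 0.389. In contrast, *S100a13* took 2.97% ± 0.296 with IL-1β and 2.17% ± 0.229 with vehicle. These 3 shares did not overlap between the groups. Nor did those of *S100a16* (1.03% ± 0.0880 with IL-1β and 0.7145% ± 0.03835 with vehicle) and *S100b* (0.330% ± 0.0230 and 0.442% ± 0.0479). The shares of *S100a11* (56.1% ± 1.35 with IL-1β) and *S100a6* (29.95% ± 1.07) overlapped with those with vehicle. The shares add up to the whole, so a change in one moves the others.

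Intracellular partners of S100 proteins moved in both directions. Of 14 such genes, 11 were tested, of which 3 were higher and 4 were lower after IL-1β and none was a DEG (median log2 fold change -0.02, beside -0.0012 for all genes tested). Of all genes tested, 20.4% were higher, 19.8% were lower and 5.21% were DEGs. Among the annexins, phospholipid-binding proteins that S100 dimers can link in pairs, *Anxa6* (97.6 ± 5.25 against 138.5 ± 4.88 CPM, log2 fold change -0.50) and *Anxa11* (log2 fold change -0.50) fell. *Anxa1*, the gene of the partner of S100A11, rose (57.1 ± 1.41 against 47.2 ± 3.18 CPM, log2 fold change 0.27), and so did *Anxa5* (log2 fold change 0.20, with vehicle replicate 1 below the other vehicle samples). *Ahnak*, the gene of a giant scaffold that S100A10 and annexin A2 anchor at the membrane, fell from 5033 ± 86.3 to 4051 ± 140.5 CPM. *Myh9*, the gene of the nonmuscle myosin heavy chain that S100A4 binds, fell with a log2 fold change of -0.38. *Trp53* rose with a log2 fold change of 0.19.

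Of the other 5 ligands of RAGE, 4 were tested and 1 passed, beside 40.2% of all genes tested. *Hmgb1*, the gene of a nuclear protein that acts as an alarmin once released, fell (164.2 ± 2.96 against 192.5 ± 13.3 CPM, log2 fold change -0.23, adjusted p = 1.10e-05 from edgeR). *Hmgb2*, *Hmgb3* and *App* did not pass the test, and *Ttr* was at 0 counts in all samples.

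Several receptors of S100 proteins other than RAGE rose. Of 9 such genes, 7 were tested, with 4 higher, 1 lower and 2 not past the test (median log2 fold change 0.36), and 2 were DEGs, where 20.4% of all genes tested were higher, 19.8% were lower and 5.21% were DEGs. *Cd14*, the gene of the coreceptor of Toll-like receptor 4, rose from 3.85 ± 0.395 to 14.0 ± 0.429 CPM (log2 fold change 1.86 ± 0.105 SE, edgeR adjusted p = 9.30e-15). *Alcam*, the gene of an adhesion molecule that binds S100B, rose from 3.08 ± 0.609 to 11.3 ± 1.23 CPM (log2 fold change 1.87 ± 0.130 SE, edgeR adjusted p = 9.79e-13). *Tlr4*, the gene of the receptor of calprotectin, rose from 36.6 ± 1.89 to 51.6 ± 4.39 CPM, vehicle replicate 3 being the highest of its group (log2 fold change 0.49, adjusted p = 1.26e-08 from edgeR). *Bsg*, the gene of basigin, which binds S100A9, rose with a log2 fold change of 0.36, *Gpc1*, which shares 18.9% of its exon bases with another annotated gene, fell with one of -0.24, *Ly96* and *Nptn* did not pass the test, and *Cd36* and *Mcam* were too low to be tested. The macrophage and leukocyte markers, cells that also carry *Cd14*, summed to 16.0 to 19.5 CPM with IL-1β, against 11.9 to 13.3 CPM with vehicle, mostly from *Cd68* (log2 fold change 0.67). The only other of these 9 markers that could be tested, *Lyz2*, was lower after IL-1β (1.24 ± 0.226 against 1.86 ± 0.312 CPM, log2 fold change -0.60, edgeR adjusted p = 0.0364). The pan-leukocyte gene *Ptprc* had 0.148 ± 0.193 and 0.107 ± 0.0938 CPM, and the part of such cells in these results was not tested.

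Among 8 tested genes of RAGE effectors and sheddases, 4 were higher, 0 were lower and 4 did not pass the test (median log2 fold change 0.14). Of all genes tested, 20.4% were higher, 19.8% were lower and 40.2% passed in either direction. *Diaph1*, the gene of the formin that binds the tail of RAGE, rose from 60.2 ± 1.20 to 85.6 ± 4.62 CPM (log2 fold change 0.51), and *Src*, the gene of a tyrosine kinase, rose from 59.9 ± 2.504 to 89.3 ± 2.27 CPM (log2 fold change 0.58). *Adam10*, the gene of a protease that sheds RAGE, and *Myd88*, the gene of the Toll-like receptor adaptor, rose with log2 fold changes of 0.16 and 0.12, the latter with IL-1β replicate 4 above the other samples of its group. Without vehicle replicate 1, 2 genes of this list were past the test in place of 4. *Rac1* and *Cdc42*, the genes of GTPases downstream of RAGE, did not pass the test, and *Rac1* shares 51.4% of its exon bases with another annotated gene, as *Myd88* does 11.3%. Of 5 tested genes that handle advanced glycation end products, the class of ligand that gave RAGE its name, 2 were higher and 2 were lower (median log2 fold change 0.05), beside 20.4% and 19.8% of all genes tested. *Lgals3* rose (966.9 ± 29.0 against 711.5 ± 13.8 CPM, log2 fold change 0.44), as did *Scarb1* (0.42), and *Ddost* and *Glo1*, the gene of the enzyme that clears methylglyoxal, each fell with a log2 fold change of -0.20.

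Transcription factors known to act on S100 genes were all past the test, with 3 of 6 higher and 3 lower and 4 DEGs (median log2 fold change 0.47), where 40.2% of all genes tested were past it and 5.21% were DEGs. With DESeq2, and without IL-1β replicate 2, 5 of the 6 were past the test. *Sox9*, with *Sox5* and *Sox6* a driver of the chondrocyte programme to which *S100a1* and *S100b* are linked, fell from 566.1 ± 5.22 to 219.1 ± 12.7 CPM (log2 fold change -1.37). *Sox6* fell with a log2 fold change of -0.44 and *Sox5* with one of -0.11. *Cebpd* (377.0 ± 15.6 against 93.3 ± 3.78 CPM, log2 fold change 2.01), *Cebpb* (526.6 ± 21.1 against 213.6 ± 8.05 CPM, log2 fold change 1.30) and *Cebpa* (18.04 ± 2.04 against 8.69 ± 0.323 CPM, log2 fold change 1.06) rose. *Cebpb* and *Cebpd* share 20.7% and 15.0% of their exon bases with other annotated genes. These C/EBP factors are known activators of *S100a8* and *S100a9* in myeloid cells, and in the same samples both genes stayed at 2 reads or fewer.

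**Figure D5:**
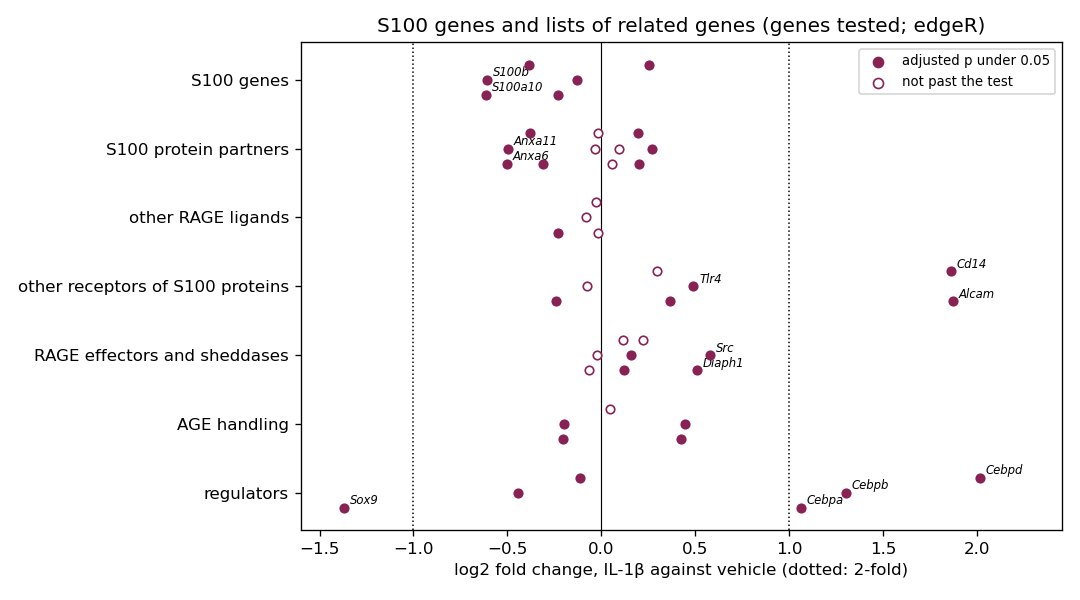
Log2 fold change, IL-1β against vehicle, of each tested gene (points), for the S100 genes and 6 lists of related genes; filled points had an adjusted p-value under 0.05 in edgeR, open points did not pass, vertical offsets only separate points, and dotted lines mark 2-fold. No S100 gene reaches a dotted line, whereas *Cd14*, *Alcam*, *Sox9*, *Cebpa*, *Cebpb* and *Cebpd* lie beyond one.

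The gene patterns most like those of the extremes were ranked by Pearson's r of log2(CPM + 1) over the 8 samples, as a description, since all these points share the split into 2 groups. For *S100a10* they were *Maf*, *Gfra1* and *Bpnt1*, each with an r of 0.998, and 1375 genes had an r above 0.9. For *S100a13* they were *Map3k13* (r = 0.980), *B430010I23Rik* (r = 0.978) and *Gm23119* (r = 0.975), and 60 genes had an r above 0.9.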

How the data were processed

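RNA-Seq counts of 8 samples were used, grouped by their labelled treatment. Per the labels and methods, the authors trimmed reads (cutadapt), aligned them (STAR, mm10) and assigned them to GENCODE vM20 genes (featureCounts). They deposited whole-number counts per gene symbol, beside gene lengths in bases (other unit). Whether the counts were corrected with RUVseq, and how reads on shared exons were counted, is not given in the sources used here.

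TMM-scaled counts were tested with edgeR 4.0.16 (quasi-likelihood test; R 4.3.3, limma 3.58.1) over 14404 of 54658 genes, those whose CPM exceeded 1 in 4 samples or more, with Benjamini-Hochberg adjustment over all of them. A standard error is the log2 fold change over the root of the F statistic. Positions came from GENCODE vM21 (GRCm38). Ratios, permutation tests and plots used scipy 1.17.1, numpy 2.4.6, pandas 2.3.3 and matplotlib 3.10.9 in Python 3.11.15. The code was tested on simulated data.

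The 10 genes and the lists of related genes and markers were chosen with earlier results of these data known. Named are these 10, the other S100 genes, the largest changes of each list, and the genes most similar to the extremes. Some marker results are not reported here. Alternatives were DESeq2 1.42.0, other scalings and filters, RUVs, a replicate block, glmTreat and each sample left out.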

Additional observations from a re-analysis of the deposited data

Results flagged for a closer look

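Dixon's test was run on 118 groups of 4 values, from 59 genes, each with IL-1β and with vehicle. These were S100 genes, *Ager* and genes of the related lists, without the marker lists. Untested genes with 3 reads or fewer in every sample, among them *S100a8* and *S100a9*, were left out. In 5 of the groups, 1 sample lay further from the other 3 than Dixon's critical value at the 95% level permits. About 1 in 20 groups, or 5.9 here, would do so by chance. None of the 5 belonged to an S100 gene or *Ager*. For *Anxa5*, vehicle replicate 1 had 348.3 CPM and the others 357.9 to 358.2 CPM. Vehicle replicate 4 had 38.2 CPM of *Cacybp*, where the others had 41.6 to 41.7 CPM, and 0.526 CPM of *Fgf1*, where the others had 0.924 to 0.981 CPM. For *Tlr4*, vehicle replicate 3 had 39.4 CPM and the others 35.4 to 36.0 CPM. For *Myd88*, the value of 73.0 CPM in IL-1β replicate 4 stood apart from 66.0 to 67.0 CPM.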

How the results depend on the processing

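The log2 fold changes of the 6 tested S100 genes kept their direction and stayed past the test under all 15 alternatives run for each. They lay between -0.63 and -0.59 for *S100a10*, -0.67 and -0.53 for *S100b*, -0.41 and -0.36 for *S100a1*, -0.25 and -0.21 for *S100a6*, -0.17 and -0.11 for *S100a11* and 0.21 and 0.32 for *S100a13*. The highest adjusted p-values were 0.0301 for *S100a11* and 0.0288 for *S100a13*. With a required log2 fold change beyond 1, and with glmTreat against that change, 0 of the 6 genes were called higher and 0 lower, in place of 1 and 5, since none changed that much. The count of RAGE effectors and sheddases past the test, 4, ranged from 2 to 6 when single samples were left out, the lowest without vehicle replicate 1. No pairing of the samples by replicate number was found. Of 4 same-numbered pairs, 0 had deviations correlated above 0.1, and 1 of 4 IL-1β samples correlated best with its own number. A weak pairing could be missed by this check. With the number as a block, 5 S100 genes were lower and 1 was higher, and over all genes 2857 were higher and 2786 lower, against 2944 and 2852. Depth limits *S100a4*, *S100a8*, *S100a9* and *Ager*, at 11 reads or fewer per sample.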
